A study of Mus musculus with 8 samples.

Results

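Aminoacyl-tRNA synthetases are the enzymes that join each amino acid to its transfer RNA, and 36 of their genes were followed in mouse liver across fasting, re-feeding and loss of Med23. The genes were chosen by symbol from a list of the family, and each symbol was found at 1 locus among the 23699 annotated loci of the deposited tables. All 36 had an FPKM (fragments mapped to a transcript, per kilobase of its length and relative to all mapped fragments of the library) of at least 1 in at least 2 libraries, as did 10865 loci in all. The 20 cytosolic enzymes and the 16 mitochondrial enzymes, whose symbols end in 2, are described apart.

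Synthetases read the genetic code: each recognises 1 amino acid and the transfer RNAs that carry it, so the set as a whole supplies charged transfer RNA to the ribosome. The cytosol and the mitochondrion mostly use separate enzymes, both encoded in the nucleus, although Gars and Kars encode forms for both compartments. In liver, which makes the plasma proteins and takes up the amino acids of a meal, several cytosolic synthetase genes are known targets of ATF4, a transcription factor induced by amino acid shortage and other stresses. Some of the cytosolic enzymes are held together in a large multi-synthetase complex by scaffold proteins.

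The mice were male, 8-week-old C57/BL6 animals of 2 genotypes, control and LMKO, the latter with a knockout of Med23 in the liver. Med23 encodes a subunit of Mediator, which links transcription factors to RNA polymerase II. The sources used here do not give the driver of the knockout or the alleles of the control mice. All mice were deprived of food for 24 h: fasted livers were taken at that point, and re-fed livers after a further 24 h of feeding, so no group was sampled without a preceding fast. Each of the 4 groups had 2 mice and 1 polyA RNA library per mouse.

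Summed FPKM per library lay between 453652 and 468218 after fasting and between 511926 and 597650 after re-feeding, and the number of fragments behind them is unknown. After fasting Med23 itself was at 2.86 and 2.93 FPKM in controls against 2.35 and 2.18 in LMKO, and after re-feeding at 2.86 and 2.33 against 1.61 and 1.74. It was lower in both LMKO libraries than in both controls in each state, as were 12.8% of all loci after fasting and 19.4% after re-feeding. Transcript of Med23 remained in every LMKO library, and its limma result is not given here. Across loci, the deviation of a library from the locus mean correlated with transcript length at 0.187 to 0.240 in the 4 fasted libraries, at -0.00672 in re-fed control replicate 1 and at -0.301 to -0.262 in the other 3 re-fed libraries. The deposited names also carry one number for the fasted and another for the re-fed libraries; whatever it marks cannot be told apart from feeding. In bulk liver, fewer cells of a type and less RNA per cell cannot be told apart.

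Levels, which FPKM gives per transcript length, spanned a wide range. Among cytosolic enzymes the highest median over the 8 libraries was that of Aars, the alanyl-tRNA synthetase, at 47.8 FPKM, and the lowest was that of Cars, the cysteinyl-tRNA synthetase, at 7.56. Among mitochondrial enzymes Lars2, the leucyl enzyme, was highest at 203 FPKM, followed by Iars2, the isoleucyl enzyme, at 21.6, and Mars2, the methionyl enzyme, was lowest at 1.34. The Lars2 level was far above the rest of its class and varied between libraries of the same group, and it is taken up separately below.

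**Figure D1:**
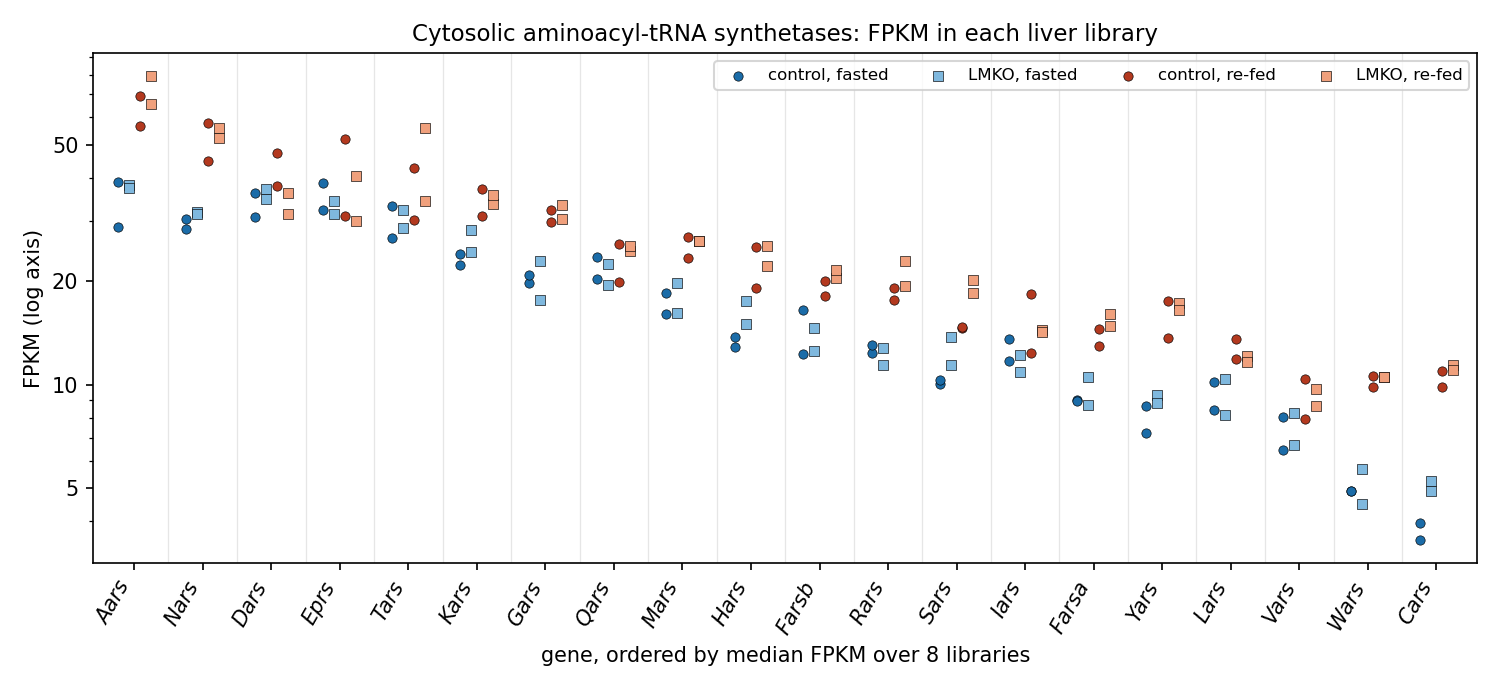
FPKM (log axis) of the 20 cytosolic synthetases in each of the 8 liver libraries, 1 point per library, with genes ordered by their median. For Cars, Wars, Yars, Nars and Aars all 4 re-fed libraries lie above all 4 fasted ones, while for Dars, Eprs and Qars the states overlap. The share of all loci so separated is not given here.

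Many synthetase transcripts were higher in re-fed than in fasted control liver, and none was called lower. In controls 21 of the 36 genes were called higher by limma at an adjusted p under 0.05, 12 of the 20 cytosolic and 9 of the 16 mitochondrial, and 0 were called lower. Over all loci tested 22.8% were called higher and 10.5% lower. The median log2 change on the log2(FPKM + 1) scale was 0.51 for cytosolic and 0.49 for mitochondrial enzymes, beside 0.13 over all loci. Both re-fed controls were above both fasted controls for 29 of the 36 genes, against 43.9% of all loci, and below them for 0, against 25% of all loci. The number called was 15 with no filter on low values and 14 after quantile normalization. The count of 21 was 13 after the relation to transcript length was removed, 11 without fasted control replicate 1, 11 without fasted control replicate 2, 9 without re-fed control replicate 1 and 11 with only the 4 control libraries in the fit.

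In LMKO liver, 19 of the 36 genes were called higher on re-feeding, 12 cytosolic and 7 mitochondrial, and 0 lower. Of all loci, 23.2% were called higher and 16.3% lower there. The median log2 change was 0.56 for cytosolic and 0.38 for mitochondrial enzymes, beside 0.06 over all loci. Both re-fed LMKO libraries were above both fasted ones for 32 genes, against 41.5% of all loci, and below them for 1, Wars2, against 33.8%. The number called was 14 with no filter on low values and 14 after quantile normalization. The count of 19 was 10 without fasted LMKO replicate 2, 11 without re-fed LMKO replicate 1 and 7 without re-fed LMKO replicate 2. The genes called in both genotypes numbered 17, which is 81% of the control list and 89.5% of the LMKO list, and 17.1% of all loci were called higher in both. The comparisons share no library, but their tests share 1 estimate of the spread from all 8. With the genotypes averaged, 26 of the 36 were called higher, beside 32.4% of all loci, and 0 lower, beside 20.6%. Below, some genes are described as having every re-fed library of both genotypes above every fasted one. The share of all loci so separated is not given here, so this describes single genes only.

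**Figure D2:**
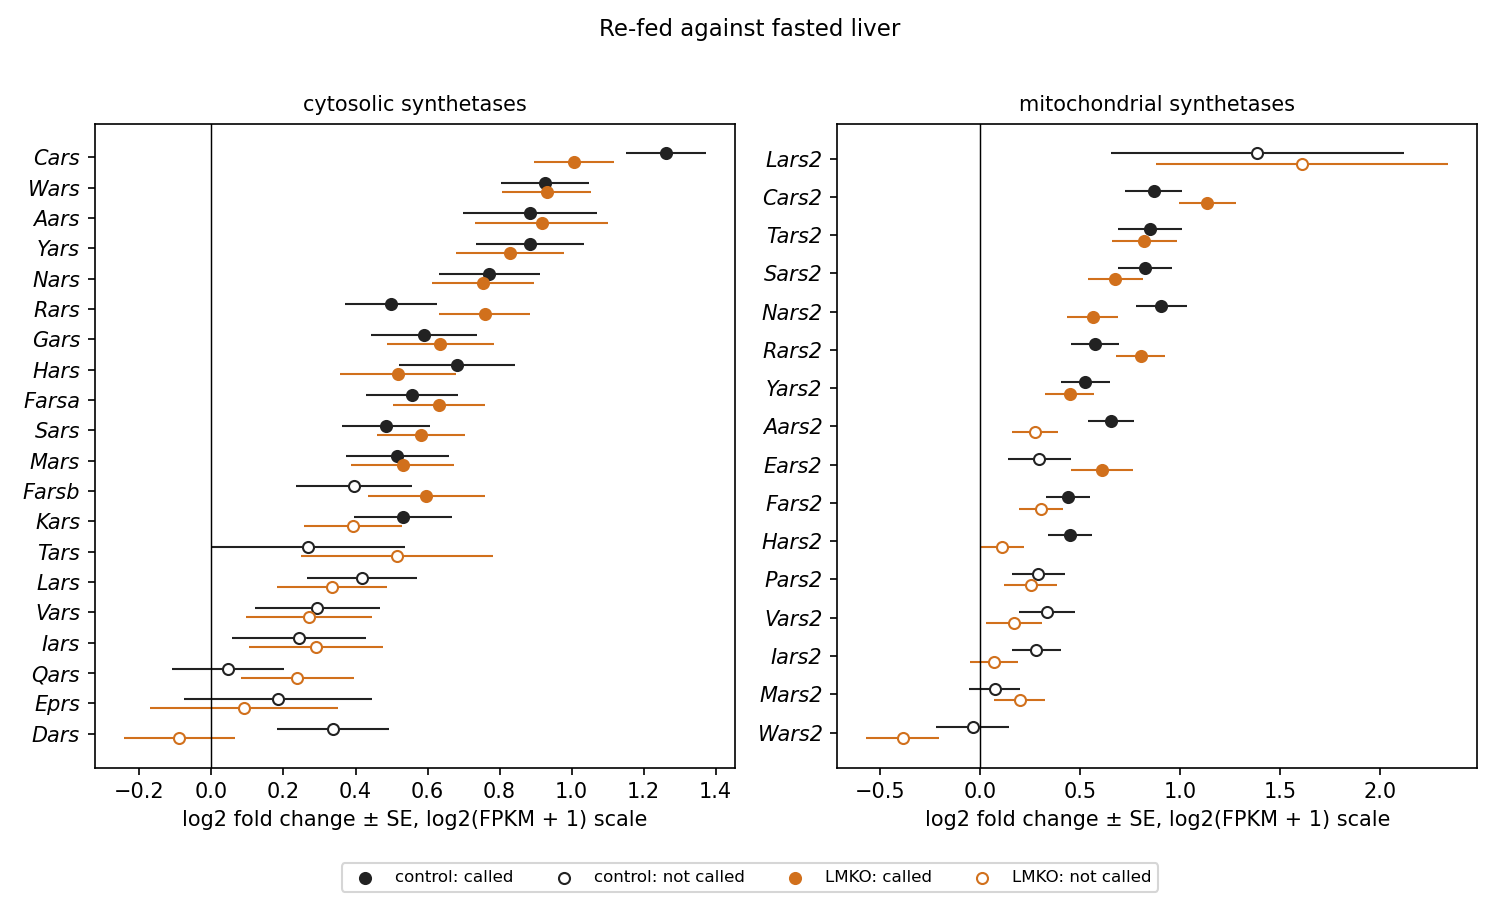
Change on re-feeding of each synthetase (log2 scale of FPKM + 1, with the standard error) in control and in LMKO liver. Most points lie to the right of 0 in both genotypes, from 1.61 for Lars2 in LMKO, which has the widest error and was not called, down to -0.39 for Wars2 in LMKO. The highest cytosolic point is Cars in controls at 1.26.

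The cytosolic enzyme with the smallest p-value in both genotypes was Cars (mm9 chr7:150743135-150785995). It was at 3.97 and 3.53 FPKM in fasted controls, 9.86 and 10.9 in re-fed controls, 5.26 and 4.92 in fasted LMKO and 11.4 and 11.03 in re-fed LMKO. Every re-fed library was therefore above every fasted one. The log2 change was 1.26 (SE 0.11, limma adjusted p = 0.00167) in controls, a 2.77-fold ratio of mean FPKM, and 1.01 (SE 0.11, limma adjusted p = 0.00183) in LMKO, a 2.21-fold ratio.

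Wars, the tryptophanyl-tRNA synthetase (mm9 chr12:110098240-110132384), was called in both genotypes. Fasted controls had 4.90 and 4.91 FPKM, re-fed controls 10.6 and 9.86, fasted LMKO 5.67 and 4.51, and re-fed LMKO 10.6 and 10.5. The states did not overlap, and the log2 change was 0.93 (SE 0.12) in each genotype, with limma adjusted p = 0.00404 in controls and 0.00279 in LMKO. Yars, the tyrosyl-tRNA synthetase (mm9 chr4:128867039-128896851), went from 7.22 and 8.68 to 17.5 and 13.6 FPKM in controls and from 9.31 and 8.84 to 17.2 and 16.5 in LMKO. Its log2 changes were 0.88 (limma adjusted p = 0.00768) and 0.83 (0.00708). These 3 enzymes, Cars, Wars and Yars, stayed called in each genotype under every one of the 17 alternatives run.

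Aars and Nars, the cytosolic synthetases with the highest median levels, rose as well. Dars, Eprs and Tars, which came next in level, were called in neither genotype. Aars (mm9 chr8:113557867-113580770) was at 28.8 and 39.0 FPKM in fasted controls and 69.5 and 56.6 in re-fed controls, and at 38.1 and 37.5 in fasted LMKO and 65.8 and 79.1 in re-fed LMKO. Its log2 change was 0.88 (limma adjusted p = 0.0146) in controls and 0.92 (0.0103) in LMKO. The Aars call was lost in controls without fasted replicate 1 (adjusted p = 0.0511) or re-fed replicate 1 (0.0623), and in LMKO without fasted replicate 2 (0.0519) or re-fed replicate 2 (0.0634). After quantile normalization it was lost in both, at 0.57 (limma adjusted p = 0.0627) and 0.58 (0.0524). Nars, the asparaginyl-tRNA synthetase, went from 28.5 and 30.3 to 57.7 and 44.9 FPKM in controls and from 31.8 and 31.5 to 52.4 and 55.8 in LMKO. Its 4 re-fed values all exceeded its 4 fasted values, and the log2 changes were 0.77 (limma adjusted p = 0.00967) and 0.75 (0.00808); without re-fed LMKO replicate 2 the latter was no longer called (0.0515). After quantile normalization both stayed called at the lower values of 0.501 and 0.48.

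A second tier of cytosolic enzymes rose by smaller amounts. Hars, the histidyl enzyme, was at 12.9 and 13.8 FPKM in fasted and 25.2 and 19.2 in re-fed controls, and at 17.5 and 15.1 in fasted and 22.1 and 25.3 in re-fed LMKO, with log2 changes of 0.68 (limma adjusted p = 0.0206) and 0.52 (0.0421). Gars, the glycyl enzyme, was at 19.7 and 20.8 against 32.2 and 29.8 in controls and 23.0 and 17.6 against 30.3 and 33.4 in LMKO, with log2 changes of 0.59 (0.0247) and 0.64 (0.016). Sars, the seryl enzyme, was at 10.1 and 10.3 against 14.6 and 14.7 in controls and 13.8 and 11.4 against 18.5 and 20.2 in LMKO, with log2 changes of 0.49 (0.0249) and 0.58 (0.0113). For each of these 3 genes the 4 re-fed values lay above the 4 fasted ones. Without a single library these calls were often lost. In controls Hars was lost without either fasted replicate or re-fed replicate 1 (adjusted p up to 0.0743), and Gars and Sars without any 1 of the 4 control libraries (up to 0.0896 and 0.0892). In LMKO Hars was lost without any 1 of the 4 LMKO libraries (up to 0.187) or either fasted control (0.0587), Gars without fasted replicate 2 or either re-fed replicate (up to 0.0888), and Sars without either replicate 2 (up to 0.0711). With the relation to transcript length removed, Hars was called in neither genotype, at 0.40 in controls and 0.24 (limma adjusted p = 0.264) in LMKO. Sars was then lost in controls (0.23, 0.123) and stayed called at 0.35 in LMKO. After quantile normalization Gars was lost in both genotypes (0.33, limma adjusted p = 0.0897, and 0.38, 0.0566) and Hars in LMKO (0.32, 0.112).

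Phenylalanyl-tRNA synthetase is built from 2 different subunits, encoded by Farsa and Farsb. Farsa was at 9.02 and 8.96 FPKM in fasted and 14.5 and 12.9 in re-fed controls, and at 10.6 and 8.72 in fasted and 16.0 and 14.8 in re-fed LMKO. It was called in both genotypes, at log2 changes of 0.56 (limma adjusted p = 0.0188) and 0.63 (0.0101). Farsb was at 12.3 and 16.5 against 19.99 and 18.2 in controls and 14.7 and 12.5 against 20.5 and 21.6 in LMKO. Its log2 changes were 0.40 (0.103), which did not pass, and 0.60 (0.0268), which did. Every re-fed value of either subunit was above every fasted one, and the difference between the genotypes in the Farsb response was 0.20 (limma adjusted p = 0.788). In controls Farsa was not called without either fasted replicate or re-fed replicate 1 (up to 0.0800). In LMKO Farsa was lost without fasted replicate 2 or re-fed replicate 1 (up to 0.0610), and Farsb without any 1 of the 4 LMKO libraries (up to 0.129). With the length relation removed, Farsa was lost in controls (0.37, limma adjusted p = 0.0549) and Farsb in LMKO (0.37, 0.124), and quantile normalization also ended the Farsb call (0.44, 0.0658).

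The enzymes of the multi-synthetase complex and the other cytosolic enzymes were counted apart, and the difference between the counts was not tested. In what follows, rose and fell stand for called higher and called lower by limma. Of the 8 enzymes of the complex (Dars, Eprs, Iars, Kars, Lars, Mars, Qars and Rars), 3 rose in controls and 2 in LMKO, with medians of 0.38 and 0.31 on the log2 scale. Of the 12 cytosolic enzymes outside it, 9 and 10 rose, with medians of 0.64 and 0.63. The change was positive for 8 enzymes of the complex in controls and 7 in LMKO, and for all 12 others in each. Positive changes were found for 60.1% of all loci in controls and 54.4% in LMKO. Of all loci 22.8% rose in controls and 23.2% in LMKO. Rars, the arginyl enzyme, rose in both genotypes. It went from 12.4 and 13.1 to 19.2 and 17.7 FPKM in controls (log2 change 0.50, limma adjusted p = 0.0257) and from 12.8 and 11.4 to 19.4 and 23.0 in LMKO (0.76, 0.0056). The Rars call in controls was lost without any 1 of the 4 control libraries (adjusted p up to 0.0911), and that in LMKO was kept in every alternative. It was also lost in controls after quantile normalization (0.33, limma adjusted p = 0.0510) and with the length relation removed (0.35, 0.0506).

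Mars, the methionyl enzyme, was the other enzyme of the complex called in both genotypes. Its values were 16.0 and 18.5 against 26.9 and 23.4 FPKM in controls and 19.7 and 16.1 against 26.3 and 26.2 in LMKO, with log2 changes of 0.52 (limma adjusted p = 0.0339) and 0.53 (0.0262). Kars, the lysyl enzyme, had 22.4 and 24.0 against 37.2 and 30.9 in controls (0.53, limma adjusted p = 0.0265) and 28.1 and 24.3 against 33.6 and 35.8 in LMKO (0.39, 0.0586, not called). For both genes re-fed and fasted libraries did not overlap. In controls Mars was lost without any 1 of the 4 control libraries or either re-fed LMKO library (up to 0.132), and Kars without either fasted replicate or re-fed replicate 1 (up to 0.0984). In LMKO Mars was lost without fasted replicate 2 or either re-fed replicate (up to 0.130). After quantile normalization Mars was called in neither genotype (0.28, limma adjusted p = 0.132, and 0.31, 0.0964) and Kars not in controls (0.29, 0.0945). Median-ratio scaling ended the Mars call in controls (0.36, limma adjusted p = 0.0721), and removing the length relation that of Kars (0.38, 0.0564).

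Lars, the leucyl enzyme, passed only with the genotypes averaged. It was at 8.44 and 10.2 against 13.6 and 11.9 FPKM in controls and 10.4 and 8.16 against 12.1 and 11.7 in LMKO, and the averaged log2 change was 0.38 (limma adjusted p = 0.0243), kept in 3 of the 8 fits that each leave out 1 library. It was not called with the length relation removed (0.28, limma adjusted p = 0.0597) or with median-ratio scaling (0.26, 0.0652). The remaining 4 enzymes of the complex were called in no comparison. Dars, the aspartyl enzyme, was at 36.1 and 30.8 against 47.3 and 38.0 FPKM in controls, where the states did not overlap, and at 34.7 and 37.0 against 31.3 and 36.1 in LMKO, where they did. Its log2 changes were 0.34 (limma adjusted p = 0.136) and -0.09 (0.671). Eprs, which encodes the glutamyl and prolyl activities in 1 protein, was at 32.2 and 38.6 against 51.96 and 31.0 in controls and 31.3 and 34.2 against 30.0 and 40.6 in LMKO. The high re-fed value of Eprs came from 1 library in each genotype, and its log2 changes were 0.18 (0.618) and 0.09 (0.805). Qars, the glutaminyl enzyme, changed by 0.05 (0.846) and 0.24 (0.263), and Iars, the isoleucyl enzyme, by 0.24 (0.349) and 0.29 (0.253).

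Outside the complex, Tars and Vars were the cytosolic enzymes called in neither genotype. Tars, the threonyl enzyme, was at 33.1 and 26.7 against 30.3 and 42.9 FPKM in controls and 32.2 and 28.5 against 55.8 and 34.2 in LMKO. The re-fed replicates of Tars differed widely within each genotype, and the log2 changes were 0.27 (limma adjusted p = 0.466) and 0.52 (0.167). Vars, the valyl enzyme, was at 6.48 and 8.06 against 10.4 and 7.95 in controls and 8.26 and 6.69 against 9.72 and 8.67 in LMKO, with log2 changes of 0.29 (0.232) and 0.27 (0.255).

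The scaffold proteins of the complex are Aimp1, Aimp2 and Eef1e1, and 2 of these 3 genes rose in each genotype. Among all loci 22.8% rose in controls and 23.2% in LMKO. Aimp2 was at 7.19 and 6.68 FPKM in fasted and 13.7 and 12.7 in re-fed controls, and at 7.48 and 6.82 in fasted and 15.4 and 15.9 in re-fed LMKO. The states were clearly apart, with log2 changes of 0.84 (limma adjusted p = 0.00352) and 1.03 (0.00163). Eef1e1 changed by 0.49 (0.0212) and 0.86 (0.00297), and Aimp1 by 0.10 (0.560) and 0.18 (0.310).

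The 2 structural classes of synthetase, which differ in the fold of the catalytic domain, were counted apart, and the difference between them was not tested. Class I cytosolic enzymes rose in 5 of 9 cases in controls and 5 of 9 in LMKO, with medians of 0.50 and 0.53. Class II enzymes rose in 7 of 10 and 7 of 10, with medians of 0.54 and 0.59. Over all loci 22.8% rose in controls and 23.2% in LMKO, with medians of 0.13 and 0.06. Eprs has a catalytic domain of each class and was left out of this count.

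Cytosolic synthetases that are known in general as linked to ATF4 were compared with the other cytosolic ones. Of the 12 on that list 8 rose in each genotype, with medians of 0.55 and 0.61. Of the 8 others 4 rose in each, with medians of 0.45 and 0.46. The share of all loci that rose was 22.8% in controls and 23.2% in LMKO. ATF4 binds DNA with C/EBP proteins at elements that hold the letters TGATGNAA. RefSeq promoters (250 bases before to 50 after the start of the gene, build GRCm38.p6) were held for 27 of the 36 genes, 13 cytosolic and 14 mitochondrial, and were searched for these letters on both strands. The motif was present in 5 of the 27 (18.5%), all of them cytosolic (5 of 13, 38.5%), in 0 of the 14 mitochondrial genes, and in 4.51% of all 27025 promoters of that length. A window of 30 bases around 1 match in each of the 5 genes is shown because these genes are on the ATF4 list and differ in whether they rose. They are written 5′ to 3′ on the strand of the gene, with the match in capitals; in all but Yars it reads as the reverse complement.
Aars, chr8:111033840-111033869, plus strand: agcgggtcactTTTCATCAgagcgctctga
Gars, chr6:55037960-55037989, plus strand: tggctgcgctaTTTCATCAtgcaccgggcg
Iars, chr13:49682126-49682155, plus strand: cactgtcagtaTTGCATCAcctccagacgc
Tars, chr15:11399655-11399684, minus strand: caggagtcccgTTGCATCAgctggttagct
Yars, chr4:129189895-129189924, plus strand: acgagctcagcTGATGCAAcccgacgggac

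All 5 genes with a match are on the ATF4 list, and their results on re-feeding differed. Aars, Gars and Yars rose in both genotypes, while Iars and Tars passed in neither. Cars and Nars, which rose in both, were among the genes whose promoter was not searched. A match is a description of the letters and not of binding, and the association was not tested.

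Other genes known to respond to ATF4 moved in both directions. Of 29 listed, 23 were tested: 5 rose and 5 fell in controls, and 6 rose and 4 fell in LMKO, with medians of -0.07 and -0.13. Of all loci 22.8% rose and 10.5% fell in controls, and 23.2% and 16.3% in LMKO. Psph and Shmt2, of serine and glycine synthesis, and the transcription factor gene Ddit3 rose in both genotypes. The counts also hold Mthfd2, of mitochondrial folate metabolism, and the transcription factor gene Atf3, which entered the test only through groups where they were high. Mthfd2 had FPKM of at least 1 in re-fed libraries alone, and Atf3 in the 2 re-fed LMKO libraries alone, so their calls are given as a description. Ddit3 was at 4.34 and 5.22 FPKM in fasted and 9.62 and 12.6 in re-fed controls, and at 5.81 and 4.17 in fasted and 18.0 and 18.3 in re-fed LMKO. Atf4 itself changed by 0.47 (limma adjusted p = 0.0539) in controls and rose by 0.77 (0.00968) in LMKO. Fgf21, a hormone of the fasted liver, fell by 4.15 (0.00434) in controls and by 2.81 (0.0103) in LMKO on the log2 scale, and Ppp1r15a and Slc38a2 fell in both as well. Asns, the asparagine synthetase gene, ranged from 1.67 to 23.6 FPKM within re-fed LMKO alone and was called in neither genotype. Of the 4 genes for eIF2 alpha kinases and Gcn1l1, an activator of the kinase GCN2, Eif2ak3 rose in controls (0.62, 0.0443), and Eif2ak1 and Eif2ak4 fell in LMKO (-0.51, 0.0193; -0.41, 0.0365).

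**Figure D3:**
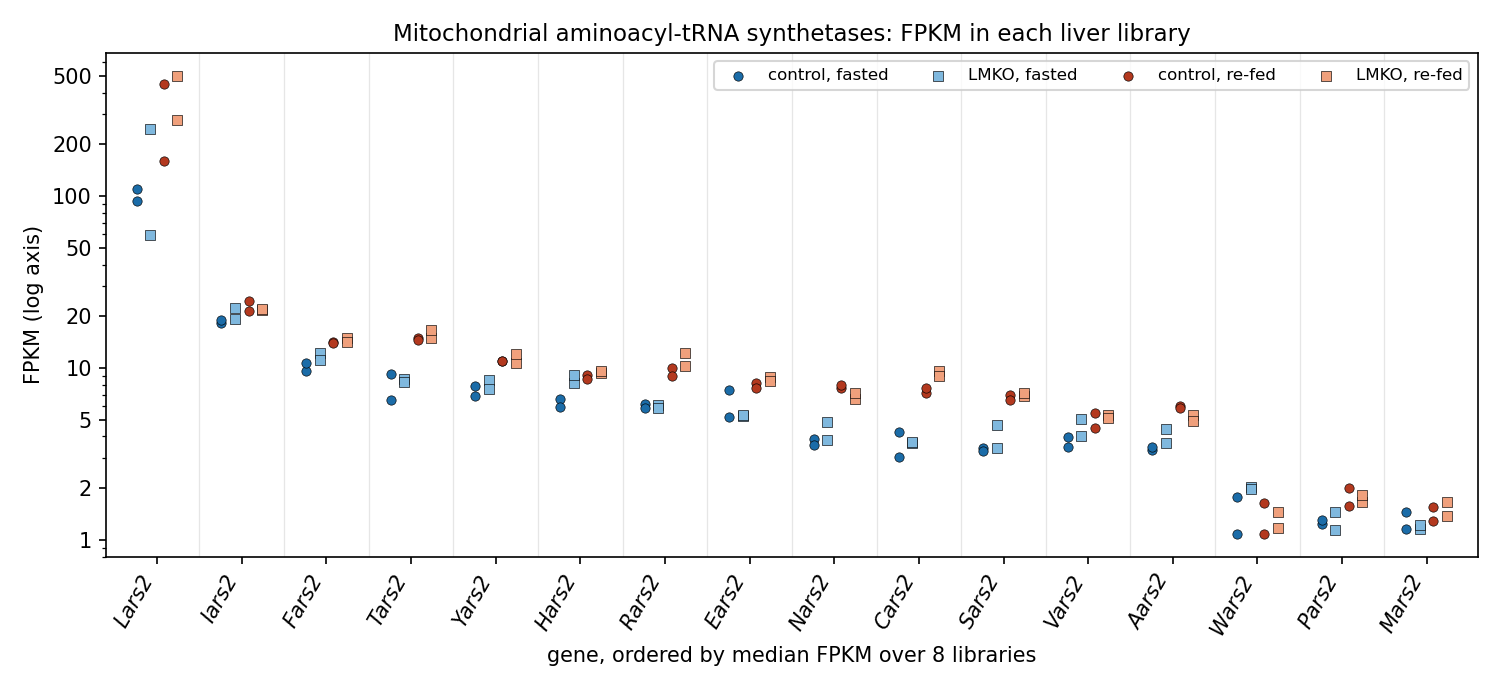
FPKM (log axis) of the 16 mitochondrial synthetases in each of the 8 liver libraries, 1 point per library, ordered by median. Lars2 stands far above the others with a wide spread within groups. For Cars2, Nars2, Tars2, Sars2 and Rars2 all 4 re-fed libraries lie above all 4 fasted ones. The share of all loci so separated is not given here.

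Among mitochondrial enzymes the clearest rises were those of Cars2, Nars2, Sars2, Tars2 and Rars2, all called in both genotypes. Cars2, the cysteinyl enzyme (mm9 chr8:11514017-11550771), was at 4.23 and 3.05 FPKM in fasted and 7.13 and 7.69 in re-fed controls, and at 3.69 and 3.71 in fasted and 9.66 and 9.04 in re-fed LMKO. Every re-fed library exceeded every fasted one. The log2 change was 0.87 (SE 0.14, limma adjusted p = 0.00702) in controls, a 2.04-fold ratio of means, and 1.14 (SE 0.14, limma adjusted p = 0.00245) in LMKO, a 2.53-fold ratio. With the relation to transcript length removed, the change in controls was 0.58 and still called.

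Nars2, the asparaginyl enzyme (mm9 chr7:104100037-104213267), was at 3.85 and 3.54 FPKM in fasted and 7.61 and 8.01 in re-fed controls, and at 3.82 and 4.85 in fasted and 6.58 and 7.13 in re-fed LMKO. Its log2 changes were 0.91 (SE 0.13, limma adjusted p = 0.00462) and 0.56 (SE 0.13, limma adjusted p = 0.0149). The smaller response in LMKO was not resolved from the larger one in controls, with a difference of -0.34 (SE 0.18, limma adjusted p = 0.594). The call in LMKO was lost without fasted replicate 1 or either re-fed replicate, reaching an adjusted p of 0.0823.

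Sars2, the seryl enzyme, went from 3.42 and 3.30 to 6.95 and 6.49 FPKM in controls (log2 change 0.83, limma adjusted p = 0.0073) and from 4.65 and 3.43 to 6.88 and 7.13 in LMKO (0.68, 0.0101). Tars2, the threonyl enzyme, went from 6.50 and 9.23 to 14.9 and 14.6 in controls (0.85, limma adjusted p = 0.0105) and from 8.66 and 8.29 to 14.9 and 16.6 in LMKO (0.82, 0.009). Rars2, the arginyl enzyme, went from 6.16 and 5.88 to 10.01 and 8.93 in controls (0.58, limma adjusted p = 0.0148) and from 6.06 and 5.89 to 10.2 and 12.2 in LMKO (0.80, 0.0041). All 3 genes had 4 re-fed values above 4 fasted values. With the length relation removed, Tars2 was called in neither genotype (0.53, limma adjusted p = 0.0562, and 0.49, 0.0613), Rars2 was not called in controls (0.28, 0.107) and was called at 0.50 in LMKO. Without re-fed LMKO replicate 2, Sars2 (0.0567) and Tars2 (0.0554) were not called in LMKO, and Rars2 was not called in controls without fasted replicate 2 (0.0721) or re-fed replicate 1 (0.0555).

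Yars2, the tyrosyl enzyme, was also called in both genotypes, at 6.86 and 7.86 against 11.1 and 10.998 FPKM in controls and 8.56 and 7.54 against 10.7 and 12.0 in LMKO. Its log2 changes were 0.53 (limma adjusted p = 0.0194) and 0.45 (0.027). Yars2 was lost in controls without fasted replicate 1 or either re-fed replicate (up to 0.0805), and in LMKO without any 1 of the 4 LMKO libraries (up to 0.143). With the length relation removed it was called in neither genotype (0.29, limma adjusted p = 0.0885, and 0.25, 0.123). Aars2, Fars2 and Hars2 were called in controls alone, and Ears2 in LMKO alone. Aars2, the alanyl enzyme, was at 3.31 and 3.46 against 5.997 and 5.84 FPKM in controls (log2 change 0.66, SE 0.12, limma adjusted p = 0.00863) and at 4.44 and 3.67 against 5.32 and 4.90 in LMKO (0.28, 0.101). The re-fed values were above the fasted ones in both genotypes, and the difference between the responses was -0.38 (SE 0.16, limma adjusted p = 0.540).

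Fars2, the phenylalanyl enzyme, was at 9.57 and 10.7 against 14.2 and 14.0 FPKM in controls (log2 change 0.44, limma adjusted p = 0.0245) and at 12.2 and 11.1 against 14.9 and 14.3 in LMKO (0.30, 0.0666). Hars2, the histidyl enzyme, was at 6.57 and 5.91 against 9.12 and 8.64 in controls (0.45, limma adjusted p = 0.0232) and at 8.21 and 9.17 against 9.30 and 9.62 in LMKO (0.11, 0.447). Ears2, the glutamyl enzyme, whose product is also the starting point for charging the mitochondrial glutamine transfer RNA, was at 5.21 and 7.44 against 8.16 and 7.65 in controls (0.30, limma adjusted p = 0.182) and at 5.25 and 5.32 against 8.82 and 8.41 in LMKO (0.61, 0.0216). Within each genotype the states of these 3 genes did not overlap. The test of the difference between the genotypes' responses did not pass for any of the 3, with limma adjusted p of 0.789 for Fars2, 0.566 for Hars2 and 0.660 for Ears2. Fars2 in controls (up to 0.101) and Ears2 in LMKO (up to 0.0968) were lost without any 1 of the 4 libraries compared, and Hars2 in controls without fasted replicate 2 or either re-fed replicate (up to 0.114). Fars2 in controls was also lost with the length relation removed (0.22, limma adjusted p = 0.152), with median-ratio scaling (0.29, 0.0803) and after quantile normalization (0.31, 0.0642). Hars2 in controls was lost in the latter 2 settings (0.31, limma adjusted p = 0.0688, and 0.36, 0.0501). Hars and Hars2 lie 74 bases apart on mm9 chromosome 18, and the sources used here do not give whether their reads were counted by strand.

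Wars2, the tryptophanyl enzyme (mm9 chr3:98945013-99024126), was the mitochondrial member that went lower on re-feeding, without passing the test. It was at 1.08 and 1.77 FPKM in fasted and 1.63 and 1.09 in re-fed controls, which overlap, and at 2.04 and 1.99 in fasted and 1.17 and 1.46 in re-fed LMKO, which do not. The log2 changes were -0.04 (SE 0.18, limma adjusted p = 0.900) and -0.39 (SE 0.18, limma adjusted p = 0.135). Its cytosolic counterpart Wars rose by 0.93 in each genotype in the same libraries.

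The other mitochondrial enzymes called in neither genotype were Iars2, Mars2, Pars2, Vars2 and Lars2. Iars2 was at 18.3 and 19.0 against 24.4 and 21.5 FPKM in controls (0.28, limma adjusted p = 0.115) and at 22.3 and 19.3 against 21.6 and 22.0 in LMKO (0.07, 0.671). Vars2, the valyl enzyme, changed by 0.34 (0.109) and 0.17 (0.362). Mars2 and Pars2, the methionyl and prolyl enzymes, were low throughout, at 1.16 to 1.66 and 1.14 to 2.01 FPKM over all 8 libraries. With the genotypes averaged Pars2 was called, at a log2 change of 0.27 (limma adjusted p = 0.0433), kept in 2 of the 8 fits that each leave out 1 library. It was lost with the length relation removed (0.17, limma adjusted p = 0.156) and with median-ratio scaling (0.20, 0.102).

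Lars2 (mm9 chr9:123276058-123371782) had both the highest level and the widest spread. In controls it was at 110 and 93.8 FPKM fasted and 160 and 448 re-fed, and in LMKO at 247 and 59.7 fasted and 279 and 501 re-fed. The replicates were close in fasted controls and far apart in the other groups. The log2 change on re-feeding was 1.39 (SE 0.73, limma adjusted p = 0.186) in controls and 1.61 (SE 0.73, limma adjusted p = 0.123) in LMKO, and neither passed. Averaged over genotypes it was 1.499 (SE 0.52, limma adjusted p = 0.0461) with overlapping states, and the call was lost under 5 of the 8 alternatives other than leaving out a library, where the adjusted p reached 0.179. It was kept in only 2 of the 8 fits that each leave out 1 library. Fits that lost the call include that without fasted LMKO replicate 2, at a change of 0.99, and that without re-fed control replicate 2, at 1.13.

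The ribosomal RNA precursor locus Rn45s, a measure of ribosomal RNA carried into a polyA library, was listed in the same tables and was set beside Lars2. In controls it was at 306 and 388 FPKM fasted and 802 and 3448 re-fed, and in LMKO at 1324 and 185 fasted and 913 and 1386 re-fed. In each of the 4 groups except fasted controls, the library with more Rn45s also had more Lars2. The part of ribosomal RNA in the Lars2 values was not tested. Because of Lars2, the summed FPKM of the 16 mitochondrial enzymes, 150 to 634, is not used as a measure of the class.

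**Figure D4:**
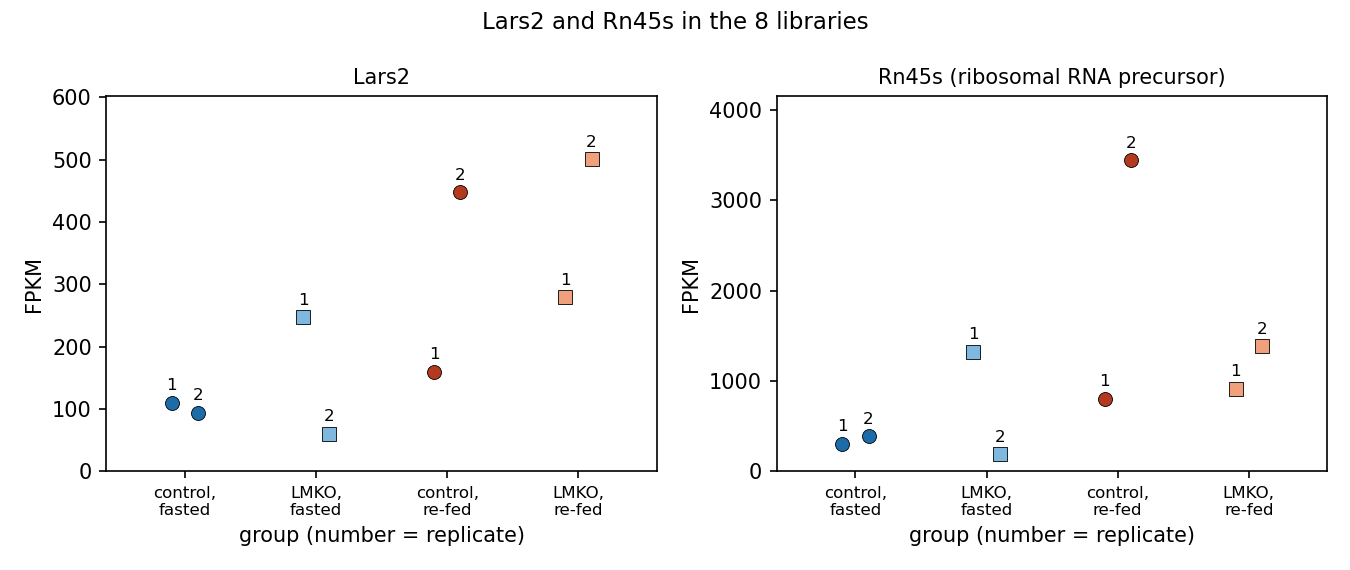
FPKM (linear axes) of Lars2, left, and of the ribosomal RNA precursor locus Rn45s, right, by group, 1 point per library with its replicate number. Fasted LMKO replicate 2 has the lowest value of both (59.7 and 185 FPKM), and the highest Lars2 value, 501, is in re-fed LMKO replicate 2, while the highest Rn45s value, 3448, is in re-fed control replicate 2.

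Set side by side, cytosolic and mitochondrial enzymes for the same amino acid were both called for some amino acids, and for others only 1 of the pair was. The cysteinyl pair rose by 1.26 (Cars) and 0.87 (Cars2) in controls and by 1.01 and 1.14 in LMKO. The asparaginyl pair rose by 0.77 (Nars) and 0.91 (Nars2) in controls and by 0.75 and 0.56 in LMKO. For threonine Tars2 rose in both genotypes and Tars passed in neither, and for tryptophan Wars rose and Wars2 did not. These are values of single genes, and the differences within pairs were not tested.

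Loss of Med23 was not accompanied by a called change in any synthetase. In fasted liver 0 of 36 genes were called between LMKO and control by limma, beside 0.166% of all loci, and 2 had an unadjusted p under 0.05. Those 2 were Hars2, at 6.57 and 5.91 FPKM in controls and 8.21 and 9.17 in LMKO (log2 difference 0.42, SE 0.11, limma adjusted p = 0.220), and Cars, at 3.97 and 3.53 against 5.26 and 4.92 (0.36, SE 0.11, limma adjusted p = 0.279). Sars followed at 0.28 (0.422). In the other direction the smallest p values were those of Ears2 (-0.20, 0.629), Iars (-0.12, 0.829) and Mars2 (-0.07, 0.851). Both LMKO libraries were above both controls for 13 genes, against 33% of all loci, and below them for 0, against 12.8%. The medians were 0.04 for cytosolic and 0.16 for mitochondrial enzymes, beside 0.08 for all loci.

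In re-fed liver 0 of 36 were again called by limma, beside 0.101% of all loci, and 1 had an unadjusted p under 0.05. It was Sars (mm9 chr3:108227782-108248177), at 14.6 and 14.7 FPKM in controls and 18.5 and 20.2 in LMKO, a log2 difference of 0.37 (SE 0.12, limma adjusted p = 0.356). Cars2 (0.30, limma adjusted p = 0.462) and Rars2 (0.22, 0.522) followed. Dars was at 47.3 and 38.0 FPKM in controls and 31.3 and 36.1 in LMKO, the largest negative difference at -0.33 (SE 0.15, limma adjusted p = 0.462). Aars2 (-0.18, 0.575) and Nars2 (-0.17, 0.637) came next. Libraries did not overlap with LMKO higher for 10 genes, against 25.6% of loci, and with LMKO lower for 3, against 19.4%. Medians were 0.09 and 0.05, beside 0.01 over all loci.

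Averaged over both states, 0 of 36 genes were called by limma for genotype, beside 0.313% of all loci, and 3 had an unadjusted p under 0.05. These were Sars (0.33, limma adjusted p = 0.183), Hars2 (0.25, 0.235) and Cars (0.23, 0.252). Among lower values the smallest p values were those of Dars (-0.11, limma adjusted p = 0.657), Eprs (-0.15, 0.738) and Iars (-0.09, 0.779). The difference between the re-feeding responses of the genotypes was called by limma for 0 of 36 genes, beside 0.0368% of all loci, and 0 had an unadjusted p under 0.05. The smallest p values were those of Aars2 (-0.38), Hars2 (-0.34, limma adjusted p = 0.566) and Dars (-0.43, 0.587) with the smaller response in LMKO, and Rars (0.26, 0.654), Ears2 (0.31, 0.660) and Cars2 (0.27, 0.680) with the larger one. Standard errors of the differences named here were 0.16 to 0.22. None of these differences was called, up to -0.43 for Dars, so the 2 mice per group leave changes of that size unresolved.

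**Figure D5:**
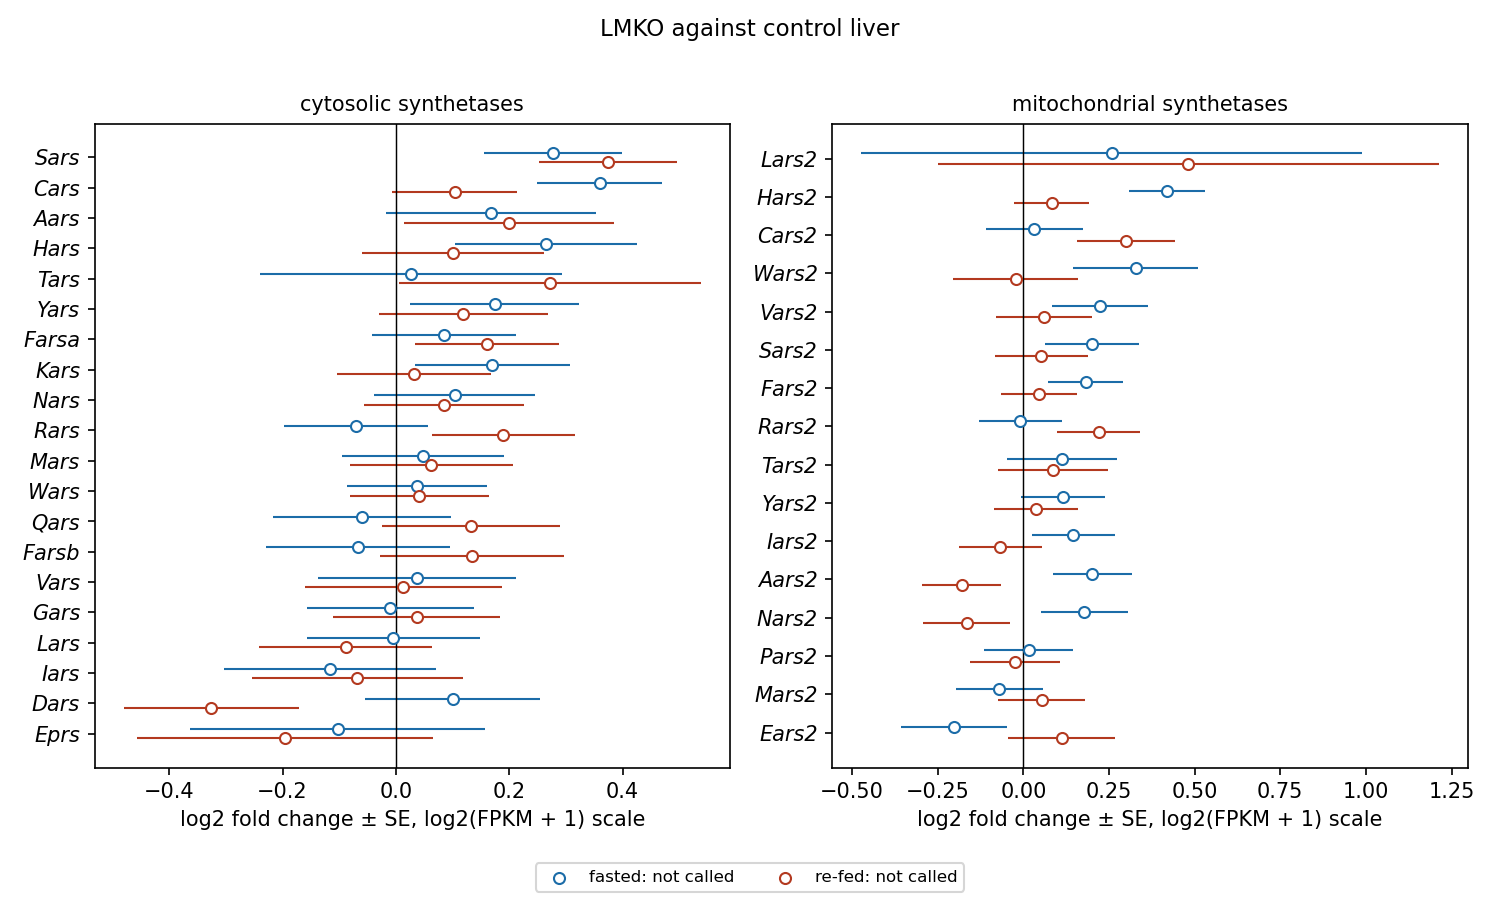
LMKO minus control difference of each synthetase (log2 scale of FPKM + 1, with the standard error) in the fasted and in the re-fed state. The largest differences are 0.48 for Lars2, re-fed, and 0.42 for Hars2, fasted, and no synthetase was called in either state.

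The translation machinery that works with the synthetases gave mixed counts on re-feeding. Of 24 cytosolic initiation and elongation factors, 3 rose in controls (Eef1g, Eef1b2 and Eif4e) and 12 rose and 2 fell in LMKO, with medians of 0.17 and 0.36. At an unadjusted p under 0.05, 10 were higher in controls and 13 in LMKO, and the difference between the responses was called by limma for 0 of 24 (1 at an unadjusted p under 0.05). Of all loci 22.8% rose in controls and 23.2% in LMKO. The share of all loci that fell was 10.5% in controls and 16.3% in LMKO. The 2 factors that fell in LMKO were Eef2, the translocation factor, at -0.54 (limma adjusted p = 0.0476), and Eif5, at -0.53 (0.0272). Of 16 tested mitochondrial translation factors 6 rose in controls and 8 in LMKO, with medians of 0.37 and 0.44. Tsfm, the mitochondrial elongation factor Ts, was at 7.53 and 6.33 FPKM in fasted and 15.6 and 16.5 in re-fed controls, and at 8.22 and 6.27 in fasted and 18.1 and 17.2 in re-fed LMKO. Tufm, its partner elongation factor Tu, was also among the called genes. Of 14 tested genes for processing or editing transfer RNA, 6 rose and 1 fell in each genotype. Among them Aarsd1, an editing protein that removes wrongly attached amino acids, rose by 0.64 (0.0173) in controls and 1.10 (0.00256) in LMKO, and Tarsl2, a threonyl synthetase-like gene, fell by 0.60 (0.0228) in LMKO.

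Markers of other liver cells moved between the same groups. On re-feeding 10.5% of all loci were called lower in controls and 16.3% in LMKO, and 22.8% and 23.2% were called higher. Summed over 6 endothelial markers, FPKM was 50.7 to 61.4 in fasted controls, 42.4 to 45.7 in re-fed controls, 76.0 to 78.0 in fasted LMKO and 36.5 to 47.9 in re-fed LMKO, and 4 of the 6 fell on re-feeding in controls and 5 in LMKO. Of 7 tested Kupffer cell markers 0 fell in controls by limma and 5 in LMKO, with sums of 80.7 to 96.8, 67.8 to 90.5, 87.0 to 117 and 39.3 to 59.9 in the same order. The 6 stellate cell markers summed to 78.3 to 84.1 in fasted and 57.4 to 74.5 in re-fed controls, and to 78.7 to 87.0 in fasted and 42.5 to 56.3 in re-fed LMKO. The sums do not stand for each marker. In controls 4 of the 6 had a positive log2 change and 2 a negative one, with a median of 0.41. In LMKO 3 were positive and 3 negative, with a median of -0.14. Of these Reln fell in both genotypes (-0.69, limma adjusted p = 0.0139, and -0.87, 0.00536), Dcn fell in LMKO (-0.86, 0.0153), and Col3a1 rose in controls (1.36, 0.0193). Of 3 tested bile duct markers Spp1 alone rose, and of the acinar markers Cela1 alone was tested and rose, while Cpa1, Pnlip and Prss2 were listed at 0 in all libraries. Hepatocyte markers summed to 16396 to 16700 FPKM in fasted and 12475 to 16942 in re-fed controls, and to 14388 to 14509 in fasted and 14247 to 17867 in re-fed LMKO, with Alb listed at 0 in all 8 libraries. Ttr rose in both genotypes (1.38, limma adjusted p = 0.00818, and 1.30, 0.0074), Apoa1 fell in both (-0.77, 0.0199, and -0.71, 0.0221), and Tat rose in LMKO (limma adjusted p = 0.0266). The part of these shifts in the synthetase values was not tested.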

How the data were processed

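Polyadenylated liver RNA was extracted with Trizol and made into TruSeq libraries, per the labels' protocols. Reads were aligned with TopHat 1.4.1 to mm9 and quantified with Cufflinks 2.0.2 and Cuffdiff 2.0.2, per the submitters' processing notes. The authors deposited 1 FPKM value per locus and library; any further scaling between libraries is not stated in the labels. Count models do not suit FPKM and were not used.

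Groups came from the sample labels, and n = 2 mice per group from the series' design text. limma 3.58.1 in R 4.3.3 (eBayes with a mean-variance trend) was fitted to log2(FPKM + 1) of the 10865 loci with FPKM of at least 1 in at least 2 of the 8 libraries, with 4 group means and 4 residual degrees of freedom. Two-sided p-values were adjusted with Benjamini-Hochberg over all loci within a comparison; called means an adjusted p under 0.05. Adding 1 understates changes of low genes. A ratio of means is on the FPKM scale. The procedure was tested on simulated data. The members and lists were chosen with earlier results of these data known. Named were synthetases called in any comparison, the 3 smallest p values in each direction, and the highest and lowest levels. In the lists described not every called gene was named, so an unnamed gene may have been called. Lists of related genes (10) and of cell type markers (10) were written from general knowledge. Deposited starts were taken as counting from 0 and are printed 1 higher. Promoter sequences are from RefSeq. One promoter sequence is not reported here. Alternatives were a pseudocount of 0.1, no filter, an FPKM minimum of 5, median-ratio scaling, quantile normalization, removal of the relation to transcript length, no trend, a replicate block, only the 4 libraries of a comparison, and leaving out each library. Transcript length was the median over a symbol's protein-coding GENCODE transcripts, or over all its transcripts where none was protein-coding. Incomplete transcripts were not left out, and a length was held for 90.8% of the loci tested. This length can be far from that of the expressed transcript. Mars2 was given 11294 bases, while its locus is mm9 chr1:55294021-55296902, and Tars2 was given 946.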

Additional observations from a re-analysis of the deposited data

Results flagged for a closer look

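Aars2 had a genotype difference of opposite direction in the 2 feeding states. Both fasted LMKO libraries (4.44 and 3.67 FPKM) were above both fasted controls (3.31 and 3.46). Both re-fed LMKO libraries (5.32 and 4.90) were below both re-fed controls (5.997 and 5.84). Such separation was common: fasted LMKO was above fasted controls for 33% of all loci and below for 12.8%. Re-fed LMKO was above for 25.6% and below for 19.4%. The share of loci with opposite directions in the 2 states was not counted. The difference of the differences was -0.38 on the log2 scale (SE 0.16, unadjusted p = 0.054, limma adjusted p = 0.540), which did not pass.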

How the results depend on the processing

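No direction of a called synthetase reversed under any alternative. Of the calls on re-feeding, 8 of 21 in controls, 6 of 19 in LMKO and 18 of 26 with the genotypes averaged were kept in every alternative. The number called in controls, 21, was 13 with the length relation removed, 11 with only the 4 libraries, and 9 to 21 when a library was left out; that in LMKO, 19, was 7 to 20 when one was left out. With no filter on low values 15 were called in controls and 14 in LMKO, and after quantile normalization 14 in each. Lost with no filter were Aars, Gars, Hars, Kars, Mars and Rars in controls, and Ears2, Farsb, Hars, Mars and Yars2 in LMKO. Lost with only the 4 control libraries were Aars, Farsa, Fars2, Hars, Hars2, Kars, Mars, Rars, Sars and Yars2. Most of these losses are not repeated gene by gene above. Genotype and interaction counts were 0 in every setting.

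The cytosolic median on re-feeding was 0.31 in controls and 0.35 in LMKO after quantile normalization. The mitochondrial median on re-feeding in controls, 0.49, was 0.54 with a pseudocount of 0.1, 0.58 with an FPKM minimum of 5, 0.35 with median-ratio scaling, 0.40 with quantile normalization and 0.40 with the length relation removed, and 0.48 to 0.53 leaving out a library. In LMKO, 0.38 was 0.45, 0.56, 0.29 and 0.46 with the pseudocount, minimum, median-ratio scaling and length settings, and 0.30 to 0.41 leaving out a library. The mitochondrial median for genotype, 0.16 fasted, was 0.0737, 0.104 and 0.0846 with median-ratio, quantile and length settings, and 0.0411 to 0.22 leaving out a library; 0.05 re-fed was 0.0069 with the length relation removed. That of the interaction, -0.11, was -0.14 with an FPKM minimum of 5, -0.0446, -0.0548 and -0.0435 with median-ratio, quantile and length settings, and -0.20 to 0.0036 leaving out a library. The cause was not tested.

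Scaling also moved the balance over all loci: 2473 higher and 1137 lower calls on re-feeding in controls became 1804 and 1751 with median-ratio scaling, 1672 and 1694 with quantile normalization and 1409 and 1381 with the length relation removed. In LMKO 2521 and 1775 became 2222 and 2211, 2012 and 2014, and 1776 and 1686. Of the 36 synthetases 35 had a positive change in controls, beside 60.1% of all loci, and 33 under each of these 3 settings. The median over all loci in controls was then -0.00104, -0.00113 and 0.00201 in the same order. The share of all loci with a positive change was not counted there.

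Over all loci, libraries with the same replicate number shared no deviation from their group means (correlations from -0.0835 to -0.00835). Such a correlation cannot show a pairing that touches few genes. With a replicate block 20, 18 and 24 synthetases were called in controls, LMKO and the average; Mars in controls (adjusted p = 0.0554) and Hars in LMKO (0.0642) were lost. Depth is unknown, and leaving out a library leaves a group with 1, assumed to vary like the others.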
